A study of Mus musculus with 55 samples.

Results

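The cerebellum of mouse pups carrying the human PON1 R192 transgene was compared with that of pups carrying the Q192 transgene, both given chlorpyrifos oxon (CPO) at 0.35 mg/kg/day. The comparison used 10 of the 55 arrays of the study, 5 labelled R192 and 5 labelled Q192, chosen by genotype and dose alone. All 19938 genes with 1 gene symbol on the array were considered, and 14950 of them were tested after a filter on low levels. The R192 pups (genotype tgHuPON1R192) and the Q192 pups (genotype tgHuPON1Q192) were C57Bl/6 and received subcutaneous CPO daily from postnatal day 4 to day 21. Cerebella were taken at postnatal day 22. Pups of the same genotypes given CPO at 0.5 mg/kg/day (5 arrays each) or the vehicle dimethyl sulfoxide (4 arrays each) were treated on the same days, and arrays labelled as Pon1 knockout (KO) and wild type (WT) made up the other groups. The mouse Pon1 probe set averaged 10.1 in the arrays labelled KO, as it did in R192 and Q192, and 5.19 in those labelled WT. Which part of the gene the probe set or the knockout covers was not examined here. The level therefore cannot show whether the labels are right. The promoter that drives the transgenes, and whether these lines lack the mouse gene, are not given in the sources used here. Whether the arrays come from separate animals is not stated in the labels, so p-values measure only the spread between arrays, which may be technical.

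CPO is the active metabolite of the insecticide chlorpyrifos and inhibits acetylcholinesterase, the enzyme that ends the signal of acetylcholine at synapses. Paraoxonase 1 (PON1) is an esterase made mainly in the liver and carried in the blood on high-density lipoprotein, where it hydrolyses CPO. Its R192 and Q192 forms, with arginine or glutamine at the variable position, are common human variants, and R192 hydrolyses CPO the more efficiently of the pair. The comparison asks whether cerebellar gene expression differed between pups whose PON1 forms differ but whose CPO dose was the same. Each form is carried by its own transgenic line, so the PON1 form cannot be told apart from other differences between the lines.

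Levels are given on the log2 scale of the deposited RMA values, and differences are R192 minus Q192, with a standard error (SE) from the fit. The fit takes account of array date and of arrays that share a number in their descriptions, so a difference can depart slightly from that of the plain means. The 4 markers examined of the cerebellum were high in all 10 arrays, and their mean levels ranked between the 90.6th and the 99.7th percentile of genes. Gabra6, a receptor subunit of granule neurons, lay between 12.47 and 12.83 in R192 pups and between 12.23 and 12.72 in Q192 pups. Arrays of 1 group differed by 0.260 to 0.339 (root mean square, log2) in R192 pups and by 0.270 to 0.349 in Q192 pups, and no 2 of them held the same values. The 3 pairs that share a description number differed by 0.284 to 0.345, within that spread, and whether any pair comes from 1 animal is not known. Replicates 3 and 4 of R192 share their description number with each other and with an array labelled KO. In Q192, replicates 1 and 2 share a number, and so do replicates 4 and 5.

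At CPO 0.35, 0 of 14950 genes passed an adjusted p under 0.05 (0%; limma with Benjamini-Hochberg adjustment), and the smallest adjusted p was 0.776. An unadjusted p under 0.05 was reached by 439 genes (2.94%), of which 198 were higher in R192 (1.32%) and 241 lower (1.61%). The arrays of the 2 genotypes did not overlap for 149 genes (0.997%), 90 of them higher in R192 (0.602%) and 59 lower (0.395%). With array quality weights 5 genes passed, Wdfy1, AI506816 and Gm13570 higher and Zfp951 and Zkscan3 lower, where every other alternative left 0. Of these, Zkscan3 and Gm13570 were named after their values were seen. Without R192 replicates 3 and 4 the count was also 0, with 331 genes at an unadjusted p under 0.05. Lack of overlap by itself gives each of the 149 a p of 0.00794, the smallest two-sided p of an exact permutation test over the 252 splits of 5 against 5. This p therefore adds nothing to the count. It is also the fraction of genes expected without overlap if all arrays were exchangeable, near the 0.997% seen. Whether arrays that share a description number are exchangeable with the others is not known.

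The differences were small over the whole array. Their median was 0.0017 and their standard deviation over genes 0.085, while the median SE of a gene was 0.086. The 95% interval lay within 1 log2 unit of 0 for 99.9% of genes and within 0.5 for 97.2%. Only 10 genes differed by 0.5 or more in size, and none by 1 or more. In vehicle pups 105 genes, and at CPO 0.5 only 7 genes, reached 0.5.

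The same pair of genotypes was set side by side in pups given vehicle or CPO 0.5, whose arrays are not among the 10. There 4 genes passed in vehicle (0.0268%) and 1 at CPO 0.5 (0.00669%), and 3 passed on the mean of both (0.0201%), a comparison added after the values were seen. The shares at an unadjusted p under 0.05 were 16.9% in vehicle, 1.79% at CPO 0.5 and 9.67% on the mean of both. The vehicle count was 0 on either array date alone and 0 without R192 vehicle replicate 1, Q192 vehicle replicate 1 or Q192 vehicle replicate 3. It moved the other way in other settings, to 8 without replicate 5 labelled KO at 0.35, 600 with only the compared arrays and 1764 with array quality weights. Over genes, the differences at 0.35 correlated with those in vehicle at Pearson r = 0.29 and with those at 0.5 at r = 0.20, while vehicle and 0.5 correlated at r = 0.09. Genes are not independent replicates and arrays share date and processing, so these correlations are descriptions.

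**Figure D1:**
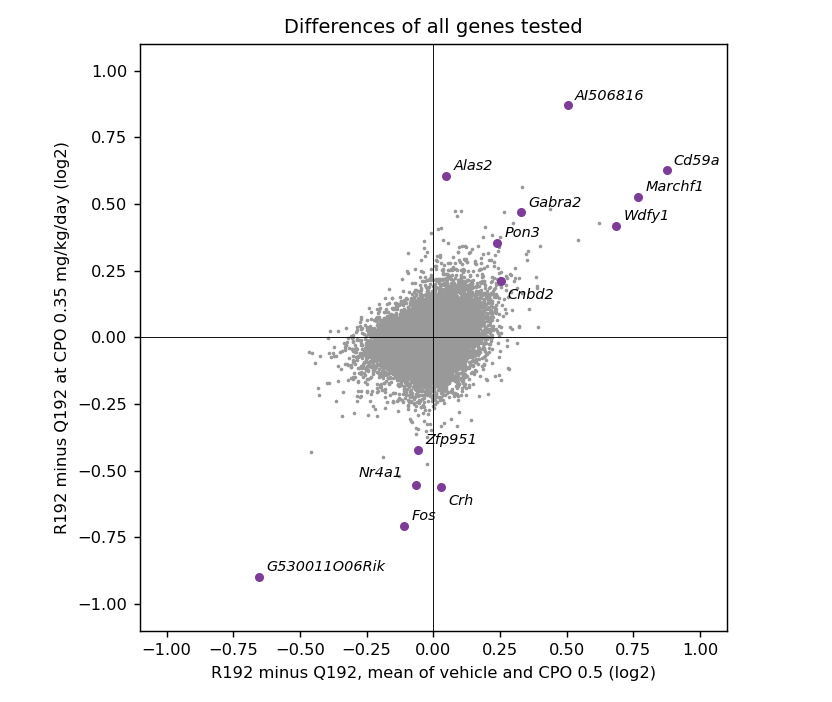
R192 minus Q192 (log2) for each of the 14950 genes tested, at CPO 0.35 mg/kg/day on the vertical axis and as the mean of vehicle and CPO 0.5 on the horizontal axis, with named genes in purple. Most genes lie in a cloud around 0, while Wdfy1, Cd59a, Marchf1, AI506816 and G530011O06Rik stand out on both axes. Fos and Nr4a1 lie low on the vertical axis only. Their differences in vehicle (-0.44 and -0.46) and at CPO 0.5 (0.22 and 0.33) had opposite signs and offset each other in the mean.

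Of the 14950 genes, 3 did not overlap between R192 and Q192 arrays in any of vehicle, 0.35 and 0.5, and all 3 were higher in R192. In vehicle 13.7% of genes and at 0.5 0.789% did not overlap. They are Wdfy1, on chromosome 1, Cd59a, on chromosome 2, and Marchf1, on chromosome 8. These are also the 3 genes that passed on the mean of vehicle and CPO 0.5, which rests on the same vehicle and 0.5 arrays and is not separate support.

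Wdfy1 encodes an endosomal adaptor that links Toll-like receptors 3 and 4 to their signalling partner. At CPO 0.35 its level was 8.77, 8.74, 8.71, 8.84 and 8.83 in the R192 arrays, against 7.98, 8.28, 8.50, 8.58 and 8.47 in the Q192 arrays. Every R192 array lay above every Q192 array, and the Q192 arrays were the more spread out. The difference was 0.42 (SE 0.094, adjusted p = 0.776), a 1.34-fold higher level in R192. In vehicle the difference was 0.58 (adjusted p = 0.018) and at CPO 0.5 it was 0.80 (adjusted p = 1.09e-06). The difference at 0.35 was smaller than that at 0.5 by 0.38 (SE 0.134, unadjusted p = 0.0071), which did not pass over all genes (adjusted p = 1). Over all treatments Wdfy1 lay between 8.65 and 8.87 in R192, between 7.74 and 8.58 in Q192, between 8.57 and 8.94 in arrays labelled KO and between 8.58 and 9.13 in those labelled WT, so Q192 was the low genotype.

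Within array date, the Wdfy1 difference at 0.35 was 0.62 on date 1 (2 arrays each) and 0.28 on date 2 (3 arrays each). The 5 tested genes on either side of Wdfy1 did not share its direction, with 5 higher and 5 lower and a median of -0.0057. Among them Kcne4, which encodes a regulatory subunit of potassium channels, was lower in R192 without overlap. Kcne4 and Mrpl44 (-0.18) were the 2 of these 10 genes to reach an unadjusted p under 0.05, against 2.94% of all genes.

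Cd59a encodes the membrane protein that blocks the membrane attack complex of complement. At CPO 0.35 it measured 9.44, 9.24, 9.56, 9.68 and 9.35 in R192 arrays, against 8.89, 8.74, 8.30, 9.07 and 9.13 in Q192 arrays. The lowest R192 array lay just above the highest Q192 array. The difference was 0.63 (SE 0.195, unadjusted p = 0.0024, adjusted p = 1), against 0.85 in vehicle (adjusted p = 0.18) and 0.90 at CPO 0.5 (adjusted p = 0.194). It passed in none of these single comparisons. Its neighbour and paralogue Cd59b differed by 0.12 (unadjusted p = 0.26). Over all treatments Cd59a averaged 9.61 ± 0.23 in R192 (SD, n = 14) and 8.83 ± 0.24 in Q192 (SD, n = 14), and arrays labelled KO (9.33 ± 0.29, n = 12) and WT (9.39 ± 0.51, n = 15) overlapped with both.

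Marchf1 encodes a ubiquitin ligase that removes MHC class II and CD86 from the surface of antigen-presenting cells. Its level at 0.35 was 7.84, 8.11, 7.69, 8.01 and 7.93 in R192 arrays, against 7.54, 7.08, 7.58, 7.60 and 7.05 in Q192 arrays. The groups did not overlap, and 2 of the Q192 arrays lay well below the other 3. The difference was 0.53 (SE 0.167, unadjusted p = 0.0028, adjusted p = 1), against 0.98 in vehicle (adjusted p = 0.018) and 0.55 at CPO 0.5 (adjusted p = 1). Without R192 replicates 3 and 4, the differences at 0.35 were 0.42 for Wdfy1, 0.57 for Cd59a and 0.62 for Marchf1.

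The other 2 genes that passed in vehicle behaved differently from each other at 0.35. Cnbd2, named for its cyclic nucleotide-binding domain, measured 7.15, 7.17, 7.11, 7.32 and 7.23 in R192 arrays, against 6.97, 6.95, 6.96, 7.10 and 6.90 in Q192 arrays. Its groups just failed to overlap, with a difference of 0.21 (SE 0.070), against 0.40 in vehicle (adjusted p = 0.018) and 0.10 at 0.5. Myo10, a motor protein of filopodia, was lower in R192 in vehicle by 0.43 (adjusted p = 0.018). At CPO 0.35 Myo10 differed by -0.042 (95% interval -0.19 to 0.11), and its levels of 8.79 to 9.06 in R192 and 8.82 to 9.13 in Q192 overlapped.

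**Figure D2:**
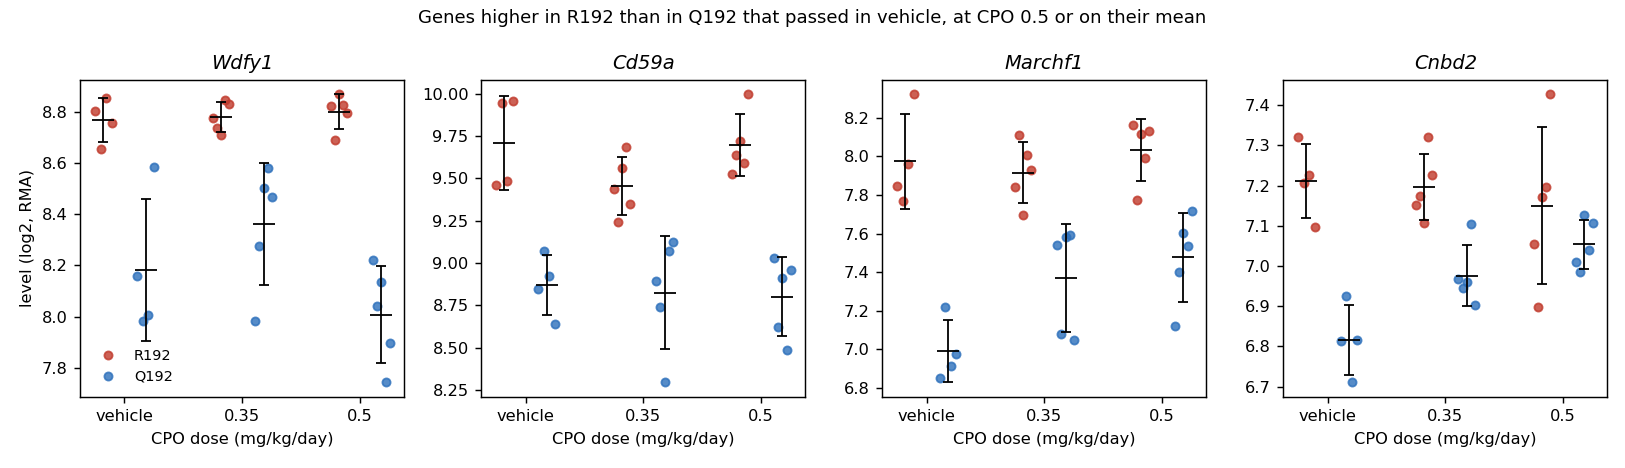
Level (log2) of Wdfy1, Cd59a, Marchf1 and Cnbd2 in each array, by CPO dose, with R192 in red and Q192 in blue and with black bars for the mean and SD. At 0.35 mg/kg/day the R192 arrays lie above the Q192 arrays in all 4 panels, and for Cnbd2 they overlap at 0.5.

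The difference of differences, at 0.35 less in vehicle, tests whether the genotypes stood apart by another amount under CPO than under vehicle. It found 0 of 14950 genes (0%; limma, smallest adjusted p 0.766), with 831 at an unadjusted p under 0.05 (5.56%). The difference at 0.35 less that at 0.5 also found 0 genes (0%), with 261 at an unadjusted p under 0.05 (1.75%). Within genotype, CPO 0.35 against vehicle found 0 genes in R192 (0%, 536 unadjusted, 3.59%) and 0 in Q192 (0%, 306 unadjusted, 2.05%).

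The 8 genes higher in R192 with the smallest p at 0.35 were Wdfy1, AI506816, Zfp607a, Gabra2, Smug1, Sulf1, Cd59a and Cald1. None passed, and as they were picked for their p at this dose, their values are descriptions. AI506816, an uncharacterised transcript on chromosome 5, had the largest difference of the 8. It measured 8.29, 7.74, 7.56, 7.62 and 8.12 in R192 arrays, against 7.10, 7.28, 6.79, 6.74 and 7.31 in Q192 arrays. The groups did not overlap, and the difference of 0.87 (SE 0.208) stood beside 0.32 in vehicle and 0.69 at 0.5, where arrays overlapped.

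Gabra2 encodes the alpha-2 subunit of the GABA-A receptor. It measured 8.82, 8.96, 9.33, 9.39 and 8.95 in R192 arrays, against 8.64, 8.34, 8.60, 8.48 and 9.02 in Q192 arrays. One Q192 array lay within the R192 range, and the difference was 0.47 (SE 0.135), against 0.48 in vehicle and 0.17 at 0.5. Over all treatments both transgenic lines lay below the others, at 9.03 ± 0.32 in R192 and 8.66 ± 0.23 in Q192 (SD, n = 14 each), while arrays labelled KO averaged 9.65 ± 0.17 (n = 12) and those labelled WT 9.59 ± 0.21 (n = 15).

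Sulf1, an extracellular enzyme that trims sulfate from heparan sulfate chains, lay between 8.32 and 8.45 in R192 and between 7.80 and 8.11 in Q192. The groups did not overlap at 0.35 or in vehicle, with differences of 0.41 and 0.37, but at 0.5 the difference was 0.02. Cald1, which encodes the actin-binding caldesmon, lay between 8.44 and 8.58 in R192 and between 8.08 and 8.39 in Q192, a difference of 0.26 (SE 0.080). Smug1, a DNA glycosylase that removes uracil, differed by 0.20, and the zinc finger gene Zfp607a by 0.35. For both of these the arrays overlapped, and the differences in vehicle were -0.0093 and 0.037.

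The 8 genes lower in R192 with the smallest p were Zfp951, Elf4, Fxyd2, Wnt3a, Myl12b, Kcne4, Nccrp1 and Cela1. Their differences ran from -0.15 to 0.12 in vehicle and from -0.12 to 0.038 at 0.5. Zfp951, a zinc finger gene, measured 6.09, 6.45, 6.32, 6.31 and 6.39 in R192 arrays, against 6.79, 6.60, 6.58, 6.58 and 7.07 in Q192 arrays. These levels lie around the filter level of 6.44, and the difference was -0.42 (SE 0.103). Elf4, an ETS transcription factor, differed by -0.34, but its other probe set by 0.0075. The Elf4 probe set used averaged 6.449 over all arrays, barely above the filter level, and the other 6.18, below it.

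Kcne4 lay between 6.06 and 6.57 in R192 and between 6.64 and 6.96 in Q192, a difference of -0.35. Cela1, a pancreatic-type elastase, lay between 6.96 and 7.09 in R192 and between 7.11 and 7.66 in Q192, a difference of -0.24, or -0.16 without Q192 replicate 4. Myl12b, a regulatory light chain of non-muscle myosin, was the only 1 of the 8 at a high level, between 11.47 and 11.67 in R192 and between 11.71 and 11.91 in Q192, with a difference of -0.23. The arrays of Fxyd2, a modulator of the sodium pump (-0.26), the Wnt ligand Wnt3a (-0.30) and Nccrp1 (-0.35) overlapped.

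**Figure D3:**
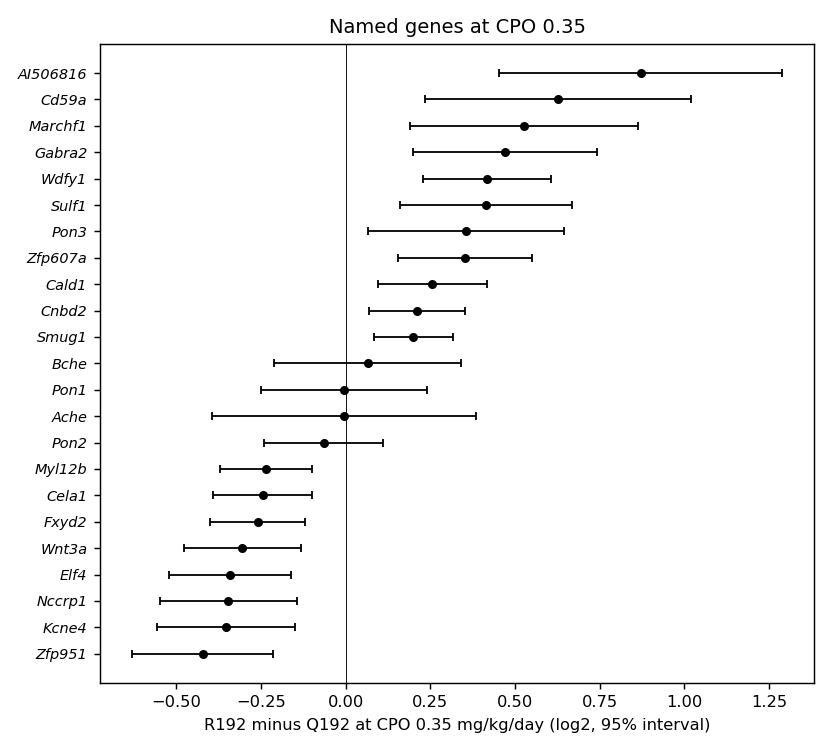
R192 minus Q192 at CPO 0.35 (log2) with its 95% interval for the 16 genes with the smallest p, for Marchf1 and Cnbd2, and for the paraoxonase and cholinesterase genes. Intervals of the 16 exclude 0 as they were chosen by p, while those of Pon1, Pon2, Ache and Bche span 0.

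Beside AI506816, Cd59a and Marchf1, the genes that differed by 0.5 or more were Alas2 (0.61) and Lyz2 (0.56) upward and Nr4a2 (-0.52), Nr4a1 (-0.55), Crh (-0.56), Fos (-0.71) and G530011O06Rik (-0.90) downward. They were named after their values were seen. G530011O06Rik, an uncharacterised transcript on the X chromosome, measured 7.45, 7.96, 8.04, 7.99 and 8.23 in R192 arrays, against 7.67, 8.25, 9.54, 9.19 and 9.09 in Q192 arrays. Replicates 2 to 5 of Q192 stood above every R192 array, replicates 3 to 5, all of date 2, by the most. Within date the difference was -0.26 on date 1 and -1.19 on date 2. In vehicle it differed by -0.68 and at 0.5 by -0.62. Arrays labelled KO averaged 6.95 ± 0.53 (SD, n = 12) and those labelled WT 7.09 ± 0.37 (SD, n = 15) over all treatments, lower than both transgenic lines at 8.01 ± 0.32 in R192 and 8.72 ± 0.49 in Q192 (SD, n = 14 each).

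Alas2 starts haem synthesis in red cell precursors and is one of 3 blood cell markers tested, of which 2 were higher and 1, the neutrophil gene S100a9 (-0.14), lower (median 0.037). Alas2 measured 9.14, 10.01, 9.16, 9.24 and 8.82 in R192 arrays, against 8.03, 8.39, 8.996, 8.90 and 8.96 in Q192 arrays, with overlap. Its difference was 0.38 without R192 replicate 2, 1.36 on date 1 and 0.11 on date 2. Lyz2, the lysozyme of macrophages and neutrophils, was high in a single array of each genotype, at 9.81 in R192 replicate 5 and at 8.65 in Q192 replicate 5, while the others lay between 7.56 and 7.80 in R192 and between 7.18 and 7.47 in Q192. Without R192 replicate 5 the Lyz2 difference was 0.13. Crh, the corticotropin-releasing hormone, lay between 5.85 and 6.58 in R192 and between 5.92 and 7.26 in Q192, and its difference was -1.17 on date 1 and -0.15 on date 2.

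The level of Pon1 itself was 10.11, 10.21, 10.09, 10.28 and 9.98 in R192 arrays, against 10.20, 10.06, 10.27, 9.78 and 10.27 in Q192 arrays. The groups overlapped throughout, with a difference of -0.0044 (95% interval -0.25 to 0.24). What the mouse probe set reads in these lines was not tested. Pon2, an intracellular antioxidant member of the family, differed by -0.065 (95% interval -0.24 to 0.11).

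Pon3, a lactonase gene next to Pon1, had the largest difference of the family. It measured 7.18, 7.03, 7.06, 7.18 and 7.28 in R192 arrays, against 6.88, 6.55, 6.59, 6.84 and 7.13 in Q192 arrays. Only the highest Q192 array reached the R192 range, and the difference was 0.36 (SE 0.144, unadjusted p = 0.017, adjusted p = 1). In vehicle it was 0.35 and at 0.5 it was 0.13. Among 31 tested genes around Pon1, 19 were higher and 12 lower in R192 at 0.35, with a median of 0.0090, and none passed. An unadjusted p under 0.05 was reached by 2 of the 31, Pon3 and Ppp1r9a (0.12), against 2.94% of all genes.

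Ache, the gene of acetylcholinesterase, measured 8.70, 8.49, 8.66, 8.47 and 8.88 in R192 arrays, against 8.82, 8.60, 8.39, 8.99 and 8.65 in Q192 arrays. The difference of -0.0045 had a 95% interval of -0.39 to 0.39. Bche, the gene of butyrylcholinesterase, another target of CPO, differed by 0.065 (95% interval -0.21 to 0.34). Of 22 cholinergic genes tested, 7 were higher and 15 lower, with a median of -0.040, and none passed. The member with the smallest p was Chrna9, a nicotinic receptor subunit (-0.19, unadjusted p = 0.021).

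The counts of gene lists below are read against all genes tested, of which 7601 were higher and 7349 lower in R192, with a median of 0.0017. No member of any of the 30 lists passed at 0.35. The lists were drawn up with earlier results of these data known, and the counts have no test. In a bulk sample, fewer cells of a type and less RNA per cell cannot be told apart.

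Immediate early genes are transcribed within minutes of neuronal activity or other stimuli, without new protein synthesis, and many carry cAMP response elements close to their start. Of 31 tested, 29 were lower in R192 at 0.35, with a median of -0.135 and a range of -0.71 to 0.10. An unadjusted p under 0.05 was reached by 7, all lower, against 1.61% of all genes, namely Fos, Nr4a1, Nr4a2, Dusp1, Npas4, Fosl2 and Egr4. The 250 bases before the start of 4 of these 7 are shown as examples, as RefSeq gives them for GRCm38.p6, 5′ to 3′ on the strand of the gene. Those of Dusp1, Fosl2 and Egr4, which lay low too, are not shown, so the 4 do not stand for the list. Capitals mark TGACG, the core of the cAMP response element, on either strand (CGTCA when read on the other). Fos lies at chr12:85473640-85473889 on the plus strand, Nr4a2 at chr2:57124004-57124253 on the minus strand, Nr4a1 at chr15:101266596-101266845 on the plus strand and Npas4 at chr19:4989972-4990221 on the minus strand.
Fos: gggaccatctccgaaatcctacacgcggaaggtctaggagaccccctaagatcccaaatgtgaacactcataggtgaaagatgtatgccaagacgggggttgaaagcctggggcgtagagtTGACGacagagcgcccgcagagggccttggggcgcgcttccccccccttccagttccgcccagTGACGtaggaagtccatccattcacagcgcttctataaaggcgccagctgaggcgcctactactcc
Nr4a2: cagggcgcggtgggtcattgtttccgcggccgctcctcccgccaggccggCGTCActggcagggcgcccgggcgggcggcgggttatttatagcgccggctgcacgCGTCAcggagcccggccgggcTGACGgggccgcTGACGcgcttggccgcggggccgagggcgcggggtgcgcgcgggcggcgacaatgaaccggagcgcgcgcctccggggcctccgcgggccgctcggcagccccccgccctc
Nr4a1: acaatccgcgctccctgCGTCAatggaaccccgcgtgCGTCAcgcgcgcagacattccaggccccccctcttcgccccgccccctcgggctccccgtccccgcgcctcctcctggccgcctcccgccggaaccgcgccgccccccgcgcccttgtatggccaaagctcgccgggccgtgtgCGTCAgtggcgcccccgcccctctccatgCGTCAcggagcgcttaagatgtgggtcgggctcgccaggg
Npas4: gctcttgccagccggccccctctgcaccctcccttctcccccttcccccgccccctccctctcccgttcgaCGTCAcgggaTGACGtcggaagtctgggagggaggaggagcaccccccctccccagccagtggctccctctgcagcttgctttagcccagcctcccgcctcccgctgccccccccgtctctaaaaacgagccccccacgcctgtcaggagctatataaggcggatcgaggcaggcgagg

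TGACG occurred 2 times in the Fos window, 4 times in Nr4a2, 4 times in Nr4a1 and 2 times in Npas4. It was found at least once in 17.8% of the 32851 promoters in the table and 3 or more times in 0.688%. The 4 windows held 58.4% to 80.0% G and C, and the promoters behind these shares were not matched for that content. Of the 31 genes, 26 had a promoter in the table and 17 of these held it. The full palindrome TGACGTCA (1.55% of promoters) and the CArG box (1.47%), which binds serum response factor, were found in none of the 4 windows. Bases farther than 250 before the start were not searched, so these genes may hold either motif outside the windows. A match describes the letters and does not show binding.

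Fos, which encodes a subunit of the AP-1 transcription factor, measured 8.33, 7.86, 8.07, 7.71 and 8.27 in R192 arrays, against 8.77, 8.86, 8.95, 8.60 and 8.70 in Q192 arrays. Every R192 array lay below every Q192 array, and the difference was -0.71 (SE 0.210, unadjusted p = 0.0016, adjusted p = 1). It was -0.72 on date 1 and -0.73 on date 2. Q192 at CPO 0.35 had the highest group mean of the 12 groups, at 8.77 ± 0.14 (SD, n = 5), and Q192 at CPO 0.5 the lowest, at 7.43 ± 0.19 (SD, n = 5).

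The nuclear receptor gene Nr4a1 measured 8.96, 8.45, 8.77, 8.40 and 9.12 in R192 arrays, against 9.13, 9.58, 9.64, 9.26 and 8.92 in Q192 arrays, a difference of -0.55 with overlap. Its relative Nr4a2 differed by -0.52, the phosphatase gene Dusp1 by -0.45 and the neuronal transcription factor Npas4 by -0.28, all with overlap. Egr1, a zinc finger transcription factor, differed by -0.11 (95% interval -0.34 to 0.11), and Maff was higher by 0.10.

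The mean of the 31 genes ranged from 7.81 to 8.09 in R192 arrays and from 8.04 to 8.25 in Q192 arrays, with overlap. In vehicle 27 of the 31 were lower in R192 (median -0.18), but at CPO 0.5 only 12 were lower and 19 higher (median 0.014). The Fos difference was -0.44 in vehicle and 0.22 at 0.5, and that of Nr4a1 was -0.46 and 0.33. For Fos the difference at 0.35 less that at 0.5 was -0.92 (SE 0.300, unadjusted p = 0.0034), which did not pass over all genes (adjusted p = 1). Glucocorticoid responsive genes were lower in 16 of 19 at 0.35 (median -0.12), in 12 in vehicle (median -0.047) and in 15 at 0.5 (median -0.042). None of the 19 reached an unadjusted p under 0.05 at 0.35, and their median was -0.013 without Q192 replicate 3, -0.041 without R192 replicate 2 and -0.034 without R192 replicates 3 and 4.

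**Figure D4:**
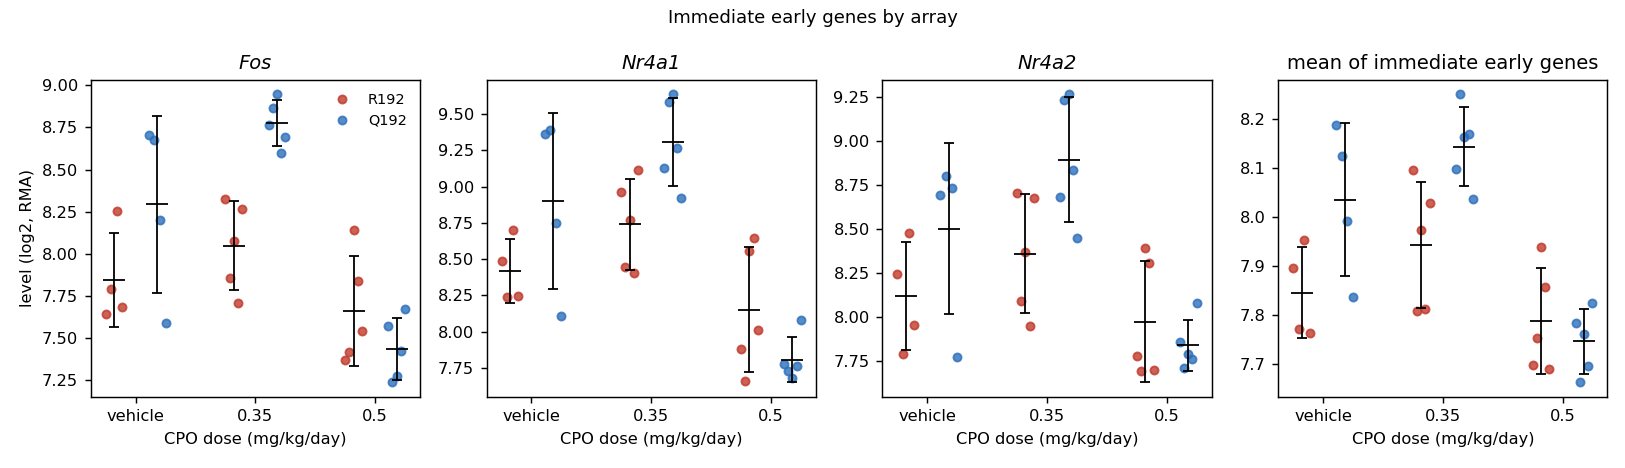
Level (log2) of Fos, Nr4a1 and Nr4a2 and the mean level of 31 immediate early genes in each array, by CPO dose, with R192 in red and Q192 in blue and with black bars for the mean and SD. At 0.35 mg/kg/day R192 averages lower in all 4 panels, without overlap only for Fos, and at 0.5 both genotypes are low.

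Choroid plexus and ependymal markers, genes of the epithelium that makes cerebrospinal fluid and lines the ventricles, were higher in R192 in 14 of 14 (median 0.17). Their mean level ranged from 8.11 to 8.36 in R192 arrays and from 7.90 to 8.12 in Q192 arrays, with overlap only between 8.11 and 8.12. Calml4 was the only member to reach an unadjusted p under 0.05 in the fit (0.43), 1 of 14 against 2.94% of all genes, and the potassium channel gene Kcnj13 (0.43) and the transthyretin gene Ttr (0.18) did not. In vehicle 13 of 14 (median 0.27) and at 0.5 also 13 of 14 (median 0.079) were higher. Within date the median at 0.35 was 0.21 on date 1 and 0.072 on date 2. With the mean of these markers as a covariate, Wdfy1 differed by 0.43, Cd59a by 0.63, Marchf1 by 0.61 and Fos by -0.68 at 0.35.

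Meningeal and fibroblast markers were higher in 12 of 12 (median 0.21), including the insulin-like growth factor gene Igf2 (0.29), the prostaglandin D synthase gene Ptgds (0.33) and the collagen gene Col1a1 (0.21). None reached an unadjusted p under 0.05. Their mean level ranged from 8.31 to 8.49 in R192 arrays and from 8.06 to 8.36 in Q192 arrays, with overlap. In vehicle 8 of 12 (median 0.067) and at 0.5 10 of 12 (median 0.093) were higher. Within date the median at 0.35 was 0.33 on date 1 and 0.098 on date 2.

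Oligodendrocyte and myelin markers were lower in R192 in 21 of 22 (median -0.15). The genes of the myelin membrane proteins Opalin (-0.32), Mag (-0.29) and Cldn11 (-0.24) lay lowest, and Mbp, myelin basic protein, differed by -0.072. Only Cspg4, a gene of oligodendrocyte precursors, reached an unadjusted p under 0.05 (-0.19), 1 of 22 against 2.94% of all genes. The mean level ranged from 10.38 to 10.71 in R192 arrays and from 10.64 to 10.91 in Q192 arrays, and R192 replicate 2 was the lowest. Without it the median was -0.082, and within date it was -0.25 on date 1 and -0.088 on date 2. In vehicle 17 of 22 (median -0.10) and at 0.5 18 of 22 (median -0.059) were lower. The part of these cell types in the other differences was not tested beyond the covariate above.

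Of the lists of 4 neuron types and of synaptic vesicle genes, only brainstem and midbrain neuron markers had a median no closer to 0 at 0.35 than in vehicle. Granule neuron markers had a median of 0.043 at 0.35 (14 of 21 higher), against -0.37 in vehicle (2 of 21 higher). Synaptic vesicle genes had medians of -0.0081 and -0.26, and Purkinje cell markers of -0.0047 and -0.11. Molecular layer and Golgi interneuron markers had a median of -0.081 at 0.35 (7 of 10 lower), against -0.25 in vehicle, and brainstem and midbrain neuron markers of -0.084 (19 of 26 lower), against -0.067. Cytosolic ribosomal proteins had a median of 0.018 at 0.35 (37 of 54 higher), against 0.20 in vehicle, where all 54 were higher. At 0.5 the medians were 0.11 for granule neurons, -0.029 for synaptic vesicles, -0.031 for Purkinje cells, -0.047 for interneurons, -0.13 for brainstem neurons and -0.037 for ribosomal proteins.

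Astrocyte markers were mixed (10 of 18 higher), with Aqp4, the water channel of astrocyte endfeet, at 12.08 to 12.30 in R192 and 11.81 to 12.23 in Q192 (0.21, unadjusted p = 0.0054). Microglia markers had a median of 0.050. Heat shock and unfolded protein response genes (0.029), glutathione and oxidative stress genes (0.00085), cholesterol biosynthesis genes (0.0046), apoptosis regulators (-0.0029) and serine hydrolases (-0.0071) had medians near that of all genes. Among interferon response genes, Usp18 was lower by 0.31 and Rsad2 higher by 0.27, with a median over 20 genes of -0.046. Among 51 axon guidance and adhesion genes 1 was without overlap, a share near the 0.997% of all genes, the semaphorin gene Sema3e, at 7.69 to 7.76 in R192 and 7.82 to 8.09 in Q192.

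A list of genes known to vary among C57BL/6 sublines held 8 tested genes, of which 4 were higher and 4 lower in R192 (median 0.031). An unadjusted p under 0.05 was reached by 3 of the 8, all higher, against 1.32% of all genes, namely Wdfy1, Gabra2 and the mitochondrial transhydrogenase gene Nnt. As this list too was drawn up with earlier results of these data known, the share is a description. Nnt measured 8.18, 8.22, 8.73, 8.78 and 9.04 in R192 arrays, against 8.19, 8.003, 8.19, 8.26 and 8.63 in Q192 arrays, a difference of 0.34 with overlap, which was 0.11 on date 1 and 0.51 on date 2. The labels name C57Bl/6 without a subline, and the part of subline in these differences was not tested.

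**Figure D5:**
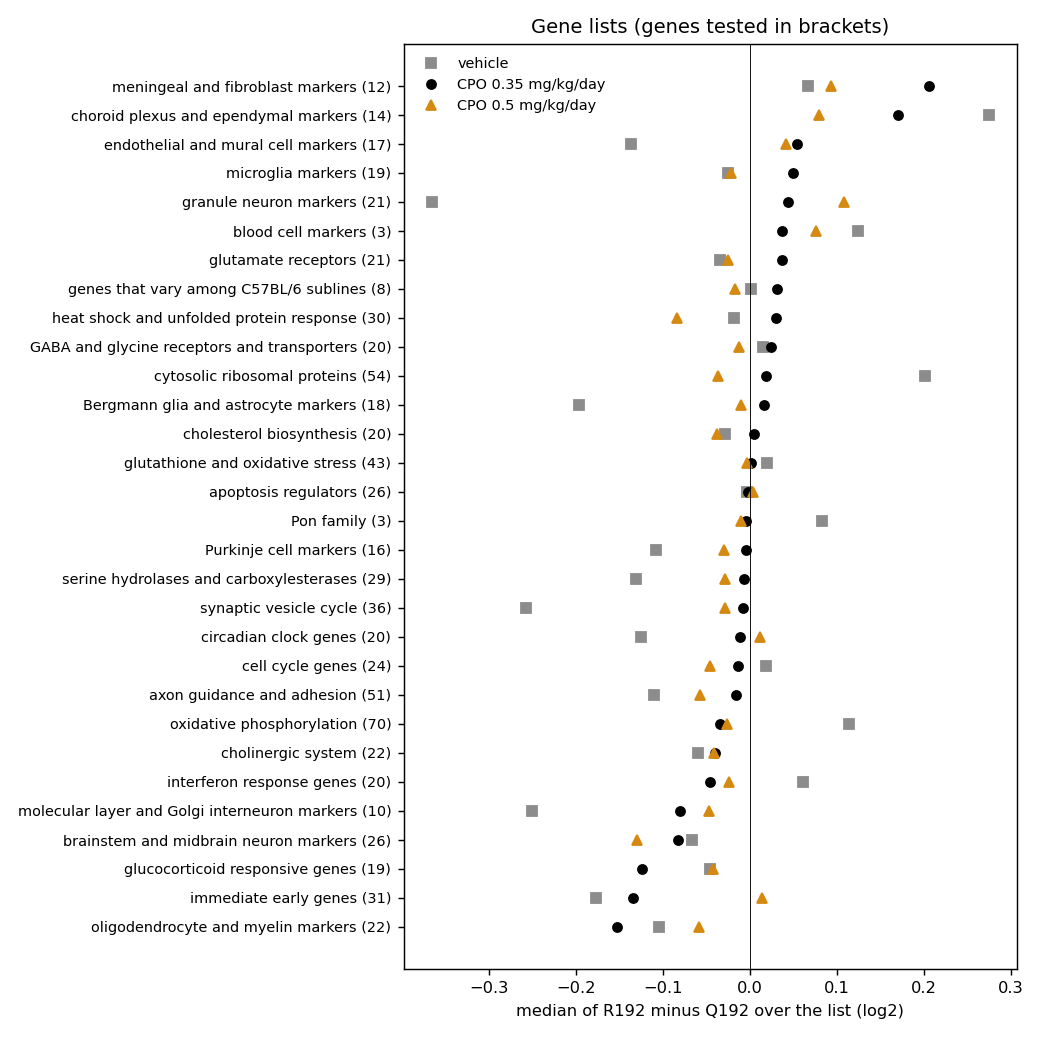
Median of R192 minus Q192 (log2) over each of 30 gene lists, in vehicle (grey squares), at CPO 0.35 (black circles) and at CPO 0.5 (orange triangles), ordered by the value at 0.35. At 0.35 the medians run from -0.15 for myelin markers to 0.21 for meningeal markers, and several lists far from 0 in vehicle lie near 0 at 0.35.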

How the data were processed

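RNA from mouse cerebellum was read on Affymetrix Mouse Gene ST arrays. The deposited log2 values were made by the authors with RMA in Affymetrix Expression Console 1.1, per the submitters' processing notes. The base of the logarithm is not named and was taken from their range, 1.15 to 14.80. Of 35557 probe sets, 21789 had 1 symbol; 1621 with several and 12147 with none were left out. Symbols were checked in the GRCm38.p6 gene table (21698 matched, 0 changed). Where a gene had more than 1 probe set (999 genes), that of highest mean stood for it. Genes were kept if their mean exceeded the 25th percentile (6.44), less 3 sex-linked genes.

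The fit used limma 3.58.1 (R 4.3.3; figures with Python 3.11.15 and matplotlib 3.10.9) on all 55 arrays, with a mean for each of 12 groups, array date as a covariate, and arrays with the same description number (36 numbers) correlated at 0.131. The trend of variance with level was used, with 42 residual degrees of freedom and Benjamini-Hochberg adjustment in each comparison. For arrays, their number limits the precision.

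Named genes were those that passed, the 8 higher and 8 lower with the smallest p at 0.35, those that passed in vehicle or at 0.5, the Pon and cholinesterase genes, and the 2 members of each list with the smallest p, of which the text gives the ones it needs. The genes that differed by 0.5 or more, Cd59a as a gene of the added mean comparison, and other immediate early genes were added after their values were seen. The members and lists were chosen with earlier results of these data known. Promoter sequences came from RefSeq.

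Replicate numbers were not used as pairs because the labels do not say that they pair arrays. The deviations of same-numbered replicates of R192 and Q192 at 0.35 correlated at -0.57 to 0.034. On simulated data for this comparison (14950 independent genes, 200 changed), 38%, 88%, 98% and 100% of genes changed by 0.3, 0.5, 1 and 2 were called, with 3 unchanged genes called. Alternatives varied date, number correlation, arrays fitted, filter, weights, centring, probe sets, replicate block, brainstem markers, a sex score and each array in turn; the choroid plexus covariate and the omission of R192 replicates 3 and 4 together were chosen after seeing the data.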

Additional observations from a re-analysis of the deposited data

Results flagged for a closer look

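Dixon's test for 1 array far from the rest of its group was run on 88 named genes in both groups at CPO 0.35 (176 groups), and chance gives about 1 in 20. It picked out 8 groups in 7 genes. In R192, Cald1 was lowest in replicate 2 (8.4407, next 8.5515), Kcne4 was lowest in replicate 4 (6.0633, next 6.4771), and Chrna9 was highest in replicate 5 (6.6194, next 6.3985). In Q192, the klotho gene Kl was lowest in replicate 2 (6.5397, next 6.9996), the neutrophil gene S100a9 was highest in replicate 5 (8.4077, next 7.0096), and the ribosomal protein gene Rps6 was lowest in replicate 4 (12.3201, next 12.5651). Lyz2 was highest in replicate 5 of R192 (9.8092, next 7.8025) and in replicate 5 of Q192 (8.6463, next 7.4698).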

How the results depend on the processing

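At CPO 0.35 the count stayed at 0 in 26 of 27 alternatives, with 184 to 990 genes at an unadjusted p under 0.05 over all 27; with array quality weights, which rated Q192 replicate 4 lowest (0.445) and R192 replicate 1 highest (2.34), 5 genes passed, namely Zfp951, Wdfy1, AI506816, Zkscan3 and Gm13570. With the replicate block the counts were 0 at 0.35, 5 in vehicle, 1 at 0.5 and 0 for the difference of differences. Leaving out each array gave 0 throughout at 0.35, 0 to 3 in vehicle (1 without R192 replicate 2 or Q192 replicate 4, 2 without R192 replicate 3 or 4) and 1 throughout at 0.5. The vehicle count of 4 moved most: 0 on date 1 alone, 0 on date 2 alone, 0 with numbers averaged, 2 above the median level, 8 without replicate 5 labelled KO at 0.35, 600 with only the compared arrays and 1764 with weights. At 0.5 the count was 2 without number correlation, 2 with only the compared arrays, 3 with brainstem markers as a covariate and 4 with weights. The difference of differences stayed at 0 in 35 of 35. Differences close to 0 changed sign. Pon1 was 0.031 on date 1, 0.017 without number correlation, 0.010 with only the compared arrays, 0.011 without replicate 5 labelled KO, and -0.086 to 0.045 when 1 array was left out. Ache was 0.017 on date 2, 0.051 with numbers averaged, 0.024 with weights, 0.0010 with the replicate block, 0.073 with brainstem markers, 0.053 with choroid markers, 0.018 without R192 replicates 3 and 4, and -0.091 to 0.069 when 1 array was left out. S100a9 was 0.26 on date 1, 0.0027 without R192 replicates 3 and 4, and -0.34 to 0.18 with 1 array left out; Myo10 was 0.0036 on date 2 and -0.083 to 0.011 with 1 array left out; the cholesterol synthesis gene Fdps was 0.019 on date 2; and Bche was -0.0051 to 0.11 with 1 array left out. The cause of these changes was not tested. In the main fit none of the 10 genes that differed by 0.5 or more at CPO 0.35 passed. AI506816, at 0.87 (SE 0.208), had an adjusted p of 0.853 (limma with Benjamini-Hochberg adjustment). An observed difference of 0.5 or more was therefore not enough to pass with these arrays. As the 10 genes were picked by the size of their estimates, they do not show how often real differences of that size would be missed. The shares of 38% and 88% called at changes of 0.3 and 0.5 are for independent genes with 200 changed. Whether they hold for these arrays was not tested.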
